A study of Mus musculus with 6 samples.

Results

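The 34 genes described here encode proteins of the basement membrane, the thin sheet of extracellular matrix (ECM) that lies under the endothelium and wraps each vascular smooth muscle cell (VSMC) of the aortic wall. They were taken by gene symbol from the 55426 genes of the deposited table, where each of the 34 had 1 row, and they comprise the type IV collagens, the laminins, the nidogens, perlecan and agrin, 5 collagens of basement membrane zones and 9 linking proteins. RNA of abdominal aortas was sequenced as 3 control and 3 *Prdm16* knockout libraries, all from male mice labelled C57BL/6J. In the knockout, floxed alleles of *Prdm16*, which encodes a transcriptional regulator, were deleted by *Myh11*-CreERT2, a tamoxifen-inducible Cre that is active in VSMCs and sits on the Y chromosome. The control mice are described as wild-type mice that carry *Myh11*-CreERT2. Tamoxifen was given at 75 mg/kg/day for 5 days to mice of 8 to 10 weeks, and RNA was taken 2 weeks later. Endothelial cells, fibroblasts and other cells of the wall keep their *Prdm16* in this model, and in bulk tissue fewer cells of a type and less RNA per cell cannot be told apart.

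Basement membranes are built on a network of laminins, heterotrimers of 1 α, 1 β and 1 γ chain, and a second, covalently linked network of type IV collagen, heterotrimers of α chains. Nidogens and the heparan sulfate proteoglycans perlecan and agrin tie the networks together, and integrins and dystroglycan anchor cells to them. In arteries VSMCs and endothelial cells both make these proteins, with laminins of α4 and α5 chains under the endothelium and α2, α4 and α5 chains around VSMCs.

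Expression was measured in TPM, a relative unit with a fixed total per library that is corrected for transcript length, so that levels of different genes can be set side by side. TPM keep no read depth, so the depth of each library is unknown here. Between 20332 and 22100 genes were above 0 per library, and mitochondrial genes took 15.8% to 27.4% of the TPM. A single gene listed as CT010467.1 took another 13.8% to 28.8%, and since TPM share a fixed total, this moves the TPM of every other gene and the summed shares of the 34. No label says that the libraries of a group came from separate animals, and the p-values measure the spread between these samples. Together the 34 genes took 0.602%, 0.784% and 0.545% of the TPM of control replicates 1, 2 and 3 and 0.464%, 0.516% and 0.386% of knockout replicates 1, 2 and 3. Of the 34, 30 passed the minimum mean of 0.5 TPM and were tested. The other 4 were near or at the floor of the table. *Lama1* was at 0 to 0.05 TPM, *Lamb3* at 0.05 to 0.92 TPM, *Fras1* at 0.09 to 0.21 TPM and *Frem1* at 0.11 to 0.31 TPM, and none of the 4 separated the groups.

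Levels spanned 3 tiers. *Sparc* and *Fn1* were the most abundant in every library, *Col4a1*, *Col4a2*, *Hspg2*, *Lamb2*, *Npnt*, *Tinagl1* and *Col18a1* lay between 151 and 828 TPM, and the remaining tested genes lay under 110 TPM. The lowest tested genes were *Frem2*, *Col7a1*, *Lama3* and *Col8a2*, with means of 0.593, 0.750, 1.505 and 1.66 TPM over the 6 libraries.

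**Figure D1:**
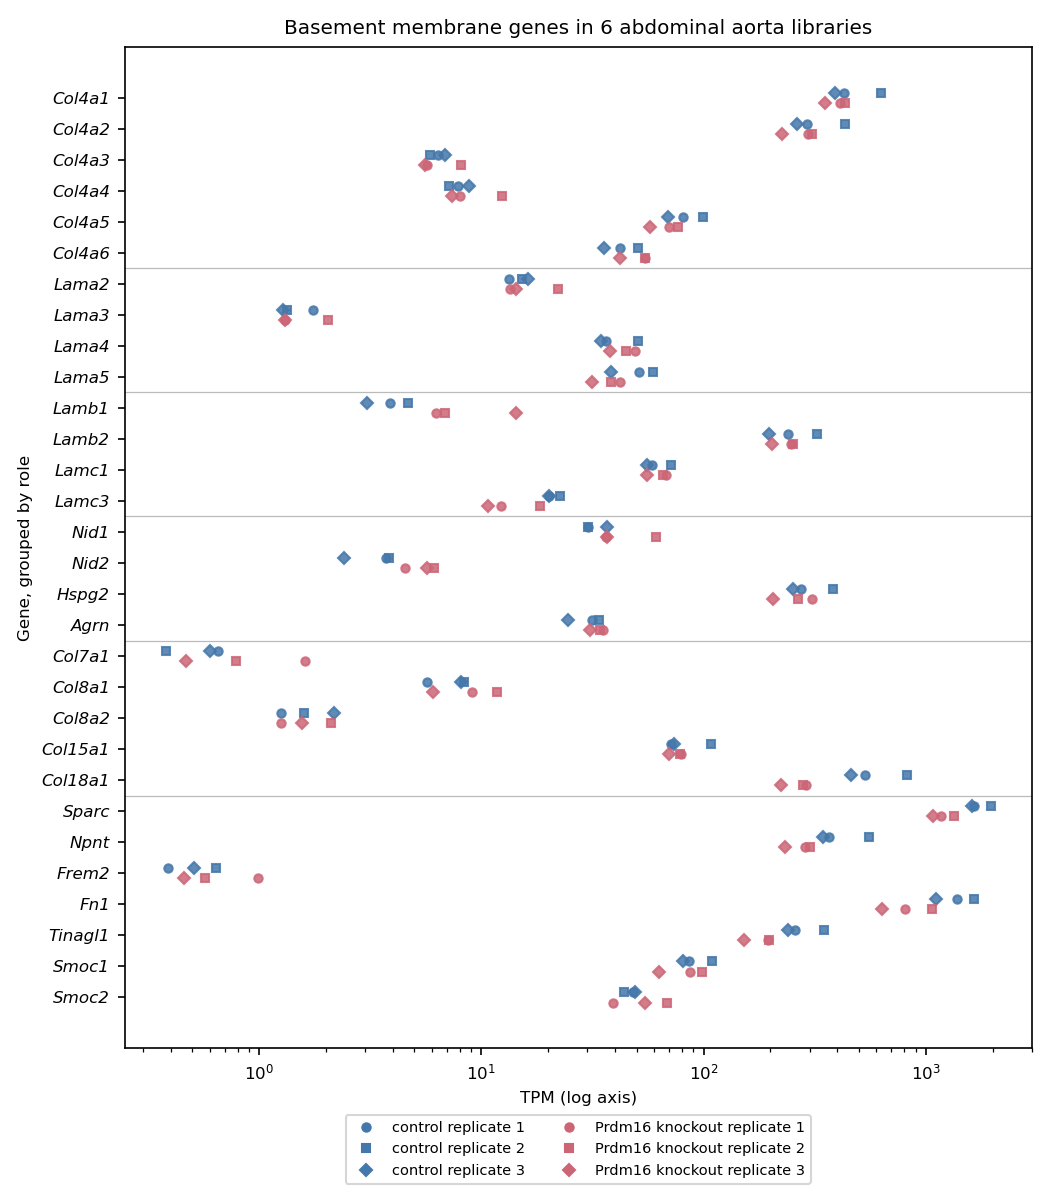
TPM of the 30 tested basement membrane genes on a log axis, 1 point per library, blue for control and red for *Prdm16* knockout, with the marker shape giving the replicate. The red and blue points are fully separated in 8 genes, *Lamb1*, *Lamc3*, *Nid2*, *Col18a1*, *Sparc*, *Npnt*, *Fn1* and *Tinagl1*.

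After Benjamini-Hochberg adjustment over 15775 genes (limma), no basement membrane gene passed the threshold of 0.05, which 0.355% of all genes did. Without adjustment 8 of the 30 had p under 0.05. *Col18a1*, *Sparc*, *Npnt*, *Fn1*, *Tinagl1* and *Lamc3* were lower in knockout aortas, 6 of 30 against 3.85% of all genes tested. *Lamb1* and *Nid2* were higher, 2 of 30 against 4.88% of all genes tested. These same 8 genes were the ones whose groups did not overlap, 6 lower and 2 higher, where 5.76% and 7.02% of all genes were separated in those directions. The 30 genes had no common direction, with 15 lower, 15 higher and a median of −0.01 for the log2 fold change, and the median of all tested genes was 0.02. The members were listed with earlier results of these libraries known, and no p-value was therefore adjusted over the list alone. The study itself reported many more genes at the same adjusted threshold. Among those lower in knockout it listed *Hspg2* and *Fn1* under terms of negative regulation of cell death and of apoptosis. It also reported its lower genes as enriched for ECM organization, collagen fibril organization and cell adhesion. Why its calls differ from these was not tested.

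Control replicate 2 held the highest value in 16 of the 30 tested genes and knockout replicate 3 the lowest in 15. The summed TPM of 7 VSMC markers was likewise highest in control replicate 2 and lowest in knockout replicate 3, with 16510, 25110 and 14790 in control replicates 1, 2 and 3 and 17400, 13420 and 11360 in knockout replicates 1, 2 and 3. The part of this in the single genes was not tested, and ratios of chains within a library, which do not move with its scaling, are given for the main pairs. *Prdm16* itself, which encodes the targeted factor, was at 33.4, 36.8 and 30.8 TPM in control and 20.8, 27.7 and 14.8 TPM in knockout libraries. Its log2 fold change was −0.705 (SE 0.225; limma, unadjusted p = 0.0126, Benjamini-Hochberg adjusted p = 0.376). The targeted gene thus did not pass the adjusted threshold either, and 0 of the settings tried called it.

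The type IV collagen genes lie in pairs, head to head on opposite strands. *Col4a1* (ENSMUSG00000031502) and *Col4a2* (ENSMUSG00000031503) encode the chains of the α1α1α2 trimer found in nearly all basement membranes. On chromosome 8 of GRCm38, *Col4a1* runs on the minus strand from 11198423 to 11312826 and *Col4a2* on the plus strand from 11312805 to 11449287. The annotated starts used here thus overlap by 22 bases. Starts differ between transcripts, and the full RefSeq span of *Col4a1* ends at 11312889. The overlap of 22 bases is shown in capitals with 4 bases on either side, because no stretch of spacer lies between these 2 genes (plus strand, chr8:11312801-11312830, RefSeq, GRCm38.p6).
Col4a2 and Col4a1 starts: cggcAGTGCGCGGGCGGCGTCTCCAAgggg

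Of the 6 type IV collagen genes 3 were lower and 3 higher, and the median log2 fold change was −0.11. *Col4a1* was at 429, 628 and 390 TPM in the control libraries (replicates 1, 2 and 3), against 412, 434 and 353 TPM in knockout replicates 1, 2 and 3. *Col4a2* was at 293, 432 and 263 TPM in control and 297, 307 and 226 TPM in knockout libraries. Control replicate 2 was the highest for both and the groups overlapped. The log2 fold changes were −0.24 for *Col4a1* (95% interval −0.71 to 0.22; limma, Benjamini-Hochberg adjusted p = 0.868) and −0.23 for *Col4a2* (95% interval −0.73 to 0.26; adjusted p = 0.888). Without control replicate 2 they were −0.04 and −0.02. Within each library the 2 genes kept nearly the same proportion. The ratio of *Col4a1* to *Col4a2* was 1.46, 1.45 and 1.48 in control and 1.39, 1.41 and 1.56 in knockout libraries, a mean of 1.46 ± 0.0124 against 1.45 ± 0.0917 (SD, n = 3 each; exact permutation test, two-sided p = 1.0).

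*Col4a5* (ENSMUSG00000031274) and *Col4a6* (ENSMUSG00000031273) encode the chains of the α5α5α6 trimer, a form known from the basement membranes of smooth muscle. They lie on the X chromosome, *Col4a6* from 141165403 to 141474076 on the minus strand and *Col4a5* from 141475385 to 141689234 on the plus strand. Between the RefSeq starts used here lie 1342 bases, and between the full RefSeq spans of the genes 1274. The bases just before each start are shown because the proportion of this pair separated the groups, and capitals mark a GC box (GGGCGG on either strand). *Col4a6* is shown on its own minus strand (chrX:141474077-141474326) and *Col4a5* on the plus strand (chrX:141475169-141475384, leaving out 34 bases next to the start that GENCODE annotates as exon and that hold 1 GC box).
Col4a6: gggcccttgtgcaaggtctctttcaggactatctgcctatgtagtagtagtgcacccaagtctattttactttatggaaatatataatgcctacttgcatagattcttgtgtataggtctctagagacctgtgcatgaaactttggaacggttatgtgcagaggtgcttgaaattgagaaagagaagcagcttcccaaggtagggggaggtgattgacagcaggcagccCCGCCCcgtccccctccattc
Col4a5: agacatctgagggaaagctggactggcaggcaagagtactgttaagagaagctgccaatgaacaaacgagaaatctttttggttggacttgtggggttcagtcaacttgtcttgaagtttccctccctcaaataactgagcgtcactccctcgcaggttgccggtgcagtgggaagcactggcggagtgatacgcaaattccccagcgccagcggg

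*Col4a5* was at 81.2, 99.2 and 69.0 TPM in control and 69.8, 76.5 and 57.4 TPM in knockout replicates 1, 2 and 3. *Col4a6* was at 42.3, 50.7 and 35.7 TPM in control and 54.5, 54.4 and 42.3 TPM in knockout replicates 1, 2 and 3. Taken alone neither gene separated the groups, with log2 fold changes of −0.28 (95% interval −0.70 to 0.13; limma, Benjamini-Hochberg adjusted p = 0.791) and 0.23 (95% interval −0.18 to 0.65; adjusted p = 0.850). Their proportion did separate them, and how often ratios of other gene pairs separate these libraries was not computed. The ratio of *Col4a5* to *Col4a6* was 1.92, 1.96 and 1.93 in control libraries and 1.28, 1.41 and 1.36 in knockout libraries, a mean of 1.94 ± 0.0179 against 1.35 ± 0.0640 (SD, n = 3 each). All 3 knockout libraries lay below all 3 control libraries, by a log2 difference of −0.52 (standard error, SE, 0.04), which with any 1 library left out stayed between −0.55 and −0.49. An exact two-sided permutation test of 3 against 3 libraries cannot give a p below 0.1, and it gave 0.1 here (0.167 adjusted by Benjamini-Hochberg over the 5 pairs compared). *Col4a6* made up 4.56 ± 0.387% of the summed type IV collagen TPM in control and 6.21 ± 0.196% in knockout libraries (SD, n = 3 each), with no overlap (exact permutation test, two-sided p = 0.1).

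*Col4a3* and *Col4a4* encode chains of the α3α4α5 trimer, best known from the kidney glomerulus, and were the scarce pair in the aorta. *Col4a3* was at 5.59 to 8.12 TPM and *Col4a4* at 7.13 to 12.4 TPM over the 6 libraries, both highest in knockout replicate 2. Their log2 fold changes of 0.00 and 0.18 had 95% intervals of −0.45 to 0.45 and −0.32 to 0.68, and the sign of each changed with a library left out (that of *Col4a3* also with another scaling). The ratio of *Col4a3* to *Col4a4*, a pair added after the values were seen, was 0.811, 0.828 and 0.783 in control and 0.711, 0.654 and 0.755 in knockout libraries, so that these groups did not overlap either (exact permutation test, two-sided p = 0.1).

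**Figure D2:**
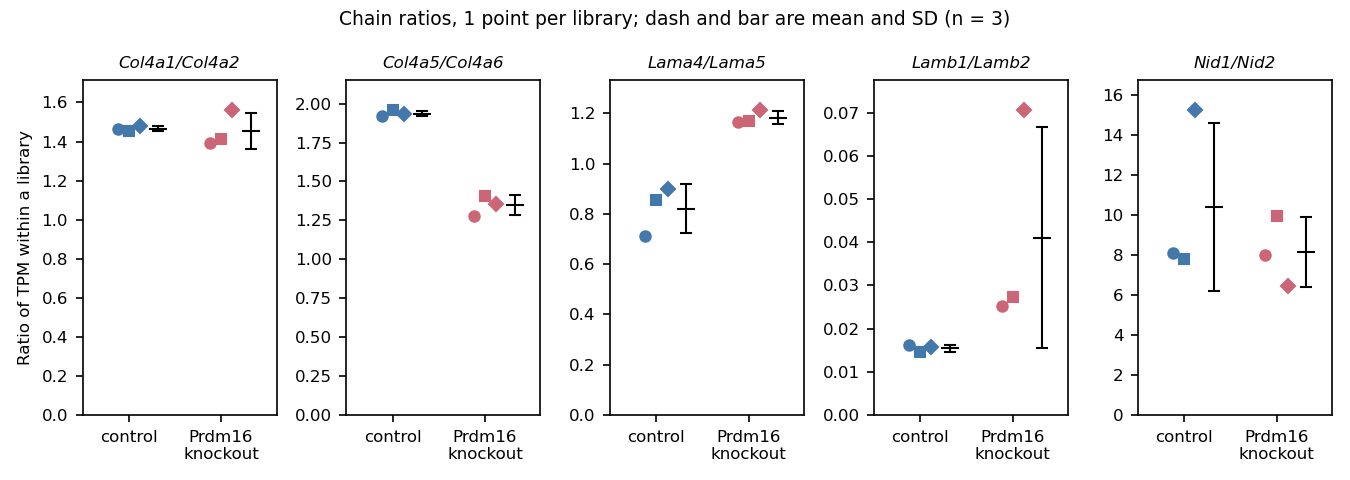
Ratio of the TPM of 2 genes within a library for 5 pairs of basement membrane chains, 1 point per library (blue, control; red, *Prdm16* knockout; dash and bar, mean and SD, n = 3), each axis starting at 0. *Col4a1*/*Col4a2* stays near 1.46 in both groups, *Col4a5*/*Col4a6* drops from about 1.94 to 1.35 with no overlap, *Lama4*/*Lama5* and *Lamb1*/*Lamb2* are higher in every knockout library, and *Nid1*/*Nid2* overlaps.

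Among the laminin α chains, *Lama5* and *Lama4* were the most abundant and *Lama2*, the α chain of muscle laminin, came next. Of the 5 α chain genes 4 were tested, 1 lower and 3 higher, and the median log2 fold change was 0.09. *Lama5* (ENSMUSG00000015647; chromosome 2, 180176373 to 180225859) was at 51.3, 59.0 and 38.5 TPM in control and 42.0, 38.4 and 31.4 TPM in knockout libraries, a log2 fold change of −0.39 (95% interval −0.84 to 0.05; limma, Benjamini-Hochberg adjusted p = 0.664). *Lama4* (ENSMUSG00000019846; chromosome 10, 38965515 to 39110188) was at 36.4, 50.5 and 34.6 TPM in control and 49.0, 44.9 and 38.1 TPM in knockout libraries, a log2 fold change of 0.13 (95% interval −0.30 to 0.56; adjusted p = 0.943). Neither gene separated the groups, and their ratio did. *Lama4* over *Lama5* was 0.710, 0.855 and 0.898 in control and 1.17, 1.17 and 1.21 in knockout libraries, so that *Lama5* led in every control library and *Lama4* in every knockout library. The log2 difference of the ratio was 0.53 (SE 0.10), from 0.43 to 0.60 with 1 library left out (exact permutation test, two-sided p = 0.1; 0.167 adjusted over 5 pairs).

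*Lama5* took 46.4 ± 3.73% of the α chain TPM in control and 37.5 ± 2.05% in knockout libraries, and *Lama4* 37.9 ± 2.29% and 44.3 ± 2.36% (SD, n = 3 each). *Lama2* was at 13.3 to 16.2 TPM in control and 13.4 to 22.2 TPM in knockout libraries, and its share of 14.3 ± 3.14% against 16.7 ± 3.98% overlapped. *Lama3*, the α chain of epithelial laminin, was at 1.28 to 2.05 TPM. The signs of the fold changes of *Lama2* and *Lama3*, 0.12 and 0.06 on the log2 scale, changed with a library left out (that of *Lama3* also with quantile normalization or array weights).

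*Lamb2* was by far the main β chain and *Lamb1* a minor one. *Lamb2* was at 240, 325 and 196 TPM in control and 248, 252 and 204 TPM in knockout libraries, a log2 fold change of −0.09 (95% interval −0.55 to 0.38; limma, Benjamini-Hochberg adjusted p = 0.972) whose sign changed without control replicate 2 or knockout replicate 3. *Lamb1* (ENSMUSG00000002900; chromosome 12, 31265234 to 31329644) was at 3.89, 4.70 and 3.07 TPM in the control libraries (replicates 1, 2 and 3), against 6.24, 6.89 and 14.4 TPM in knockout replicates 1, 2 and 3. Every knockout library was above every control library, and knockout replicate 3 was well above the other two. Its log2 fold change was 1.06 (SE 0.31; limma, unadjusted p = 0.00824, Benjamini-Hochberg adjusted p = 0.317), and 0.70 to 1.27 with 1 library left out. The ratio of *Lamb1* to *Lamb2* was 0.0162, 0.0145 and 0.0156 in control and 0.0251, 0.0274 and 0.0705 in knockout libraries (exact permutation test, two-sided p = 0.1; 0.167 adjusted over 5 pairs). The log2 difference of the ratio, 1.24, was 0.77 without knockout replicate 3. In that library 7 adipocyte markers summed to 2478 TPM, against 562 to 1093 TPM in the other 5, and their part in the *Lamb1* value was not tested.

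Of the γ chains, *Lamc1*, which is found in most laminins, overlapped between the groups and *Lamc3* did not. *Lamc1* was at 58.7, 71.7 and 55.6 TPM in control and 67.9, 65.97 and 55.4 TPM in knockout libraries, a log2 fold change of 0.03 (95% interval −0.34 to 0.39; limma, Benjamini-Hochberg adjusted p = 0.991) whose sign changed in 4 of the 6 fits with 1 library left out. *Lamc3* (ENSMUSG00000026840; chromosome 2, 31887291 to 31946539) was at 20.1, 22.7 and 20.3 TPM in control and 12.2, 18.3 and 10.8 TPM in knockout libraries. All knockout values lay below all control values, with replicate 2 the nearest. The log2 fold change was −0.63 (SE 0.21; limma, unadjusted p = 0.0157, Benjamini-Hochberg adjusted p = 0.410), and −0.84 to −0.48 with 1 library left out. As a share of the 2 γ chains, *Lamc3* was 25.4 ± 1.34% in control and 17.7 ± 3.49% in knockout libraries (SD, n = 3 each; exact permutation test, two-sided p = 0.1).

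**Figure D3:**
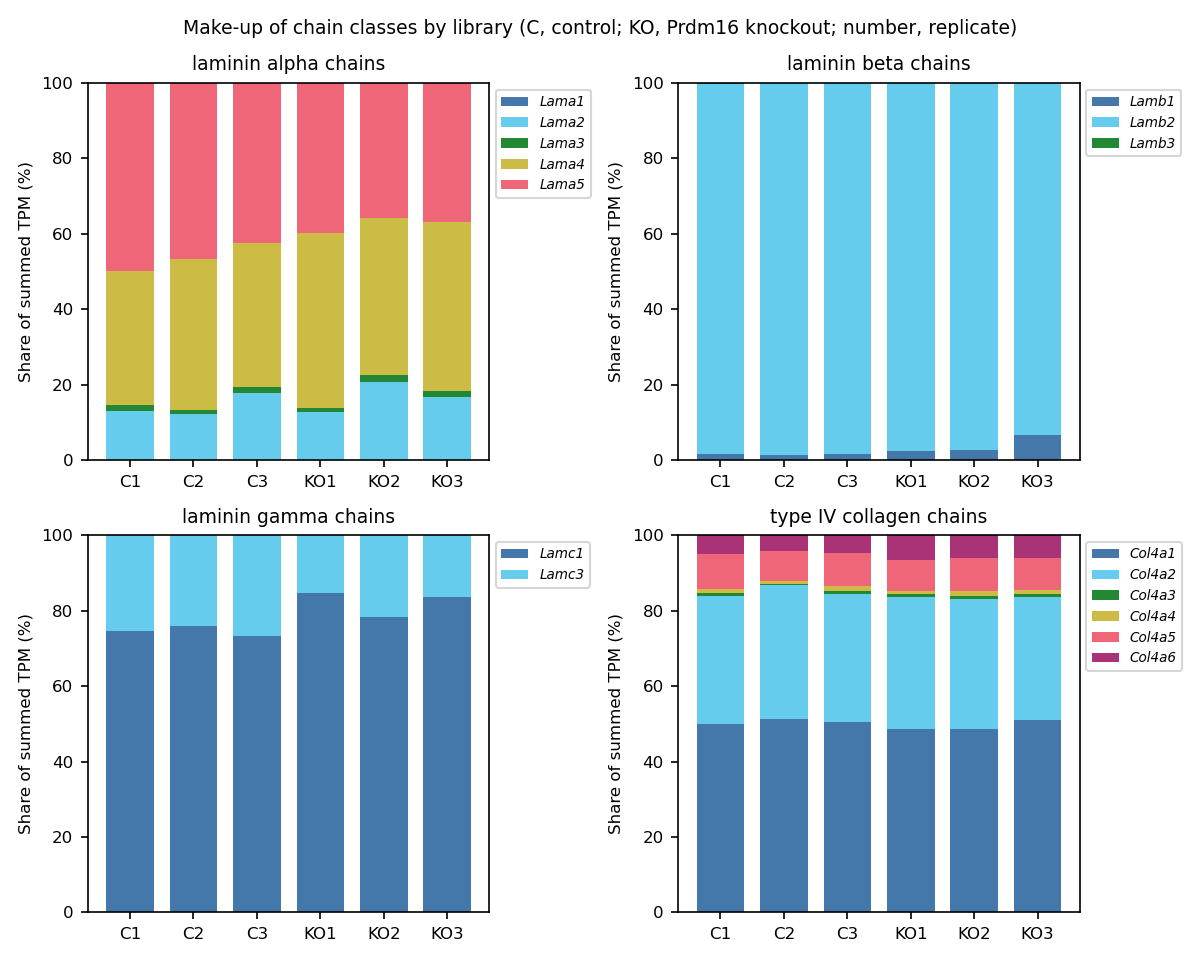
Share of each chain in the summed TPM of its class, in percent, for laminin α, β and γ chains and type IV collagen chains, 1 stacked bar per library (C, control; KO, *Prdm16* knockout; the number is the replicate). In knockout libraries the *Lama5* and *Lamc3* segments are shorter and the *Lama4*, *Lamb1* and *Col4a6* segments longer than in any control library, while *Lamb2* is the main β chain in all 6 libraries.

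The nidogens, rod-like proteins that bridge laminin and type IV collagen, were at higher mean levels in knockout than in control aortas. *Nid2* (ENSMUSG00000021806; chromosome 14, 19751265 to 19811787) was at 3.72, 3.85 and 2.41 TPM in control and 4.54, 6.13 and 5.68 TPM in knockout libraries. The groups did not overlap, and the log2 fold change was 0.65 (SE 0.23; limma, unadjusted p = 0.0198, Benjamini-Hochberg adjusted p = 0.441). *Nid1* was the more abundant nidogen, at 30.2, 30.1 and 36.7 TPM in control and 36.4, 61.0 and 36.8 TPM in knockout libraries. Knockout replicate 2 was far above the rest, replicate 1 lay just under the highest control, and the log2 fold change of 0.43 (95% interval −0.08 to 0.93) had an adjusted p of 0.687. Without knockout replicate 2 it was 0.18. The ratio of *Nid1* to *Nid2* was 8.12, 7.82 and 15.2 in control and 8.02, 9.95 and 6.47 in knockout libraries and overlapped (exact permutation test, two-sided p = 0.6).

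Perlecan and agrin carry the heparan sulfate of the basement membrane. *Hspg2*, which encodes perlecan, was at 275, 382 and 252 TPM in control and 307, 265 and 206 TPM in knockout libraries, a log2 fold change of −0.22 (95% interval −0.70 to 0.27; limma, Benjamini-Hochberg adjusted p = 0.898). *Agrn*, which encodes agrin, was at 31.5, 33.9 and 24.5 TPM in control and 35.2, 34.1 and 30.8 TPM in knockout libraries, a log2 fold change of 0.16 (95% interval −0.22 to 0.55; adjusted p = 0.905). *Agrn* lies 1.53 Mb from *Prdm16* on chromosome 4 and *Hspg2* lies 16.8 Mb from it. The groups overlapped in both genes, and the log2 fold change was −0.04 for *Hspg2* without control replicate 2 and 0.03 for *Agrn* without control replicate 3.

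*Col18a1* (ENSMUSG00000001435) and *Lamb1* had the largest log2 differences of the 30 tested genes, −1.16 and 1.06, and which of them was the larger in size changed with the library left out and with rescaling without mitochondrial genes. *Col18a1* encodes collagen XVIII, a heparan sulfate proteoglycan of vascular and epithelial basement membranes whose C-terminal fragment is endostatin. The gene lies on the minus strand of chromosome 10 of GRCm38 from 77052178 to 77166548. RefSeq places its starts at 77166530 and 77113705, which give forms of different length that a TPM per gene does not tell apart. The bases before the outer start are shown because the data bear most on this gene, with GC boxes in capitals (minus strand, chr10:77166549-77166780, RefSeq, GRCm38.p6, leaving out 18 bases annotated as exon).
Col18a1: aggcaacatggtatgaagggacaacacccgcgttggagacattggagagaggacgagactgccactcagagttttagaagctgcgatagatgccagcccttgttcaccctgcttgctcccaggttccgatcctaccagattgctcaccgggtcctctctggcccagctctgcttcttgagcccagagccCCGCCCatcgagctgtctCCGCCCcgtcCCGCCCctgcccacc

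*Col18a1* was at 532, 828 and 462 TPM in the control libraries (replicates 1, 2 and 3), against 290, 280 and 223 TPM in knockout replicates 1, 2 and 3. The highest knockout library was well under the lowest control, and the knockout libraries lay close together. The means were 607 ± 194 and 265 ± 36.2 TPM (SD, n = 3 each). The log2 fold change was −1.16 (SE 0.23; limma, unadjusted p = 8.07e-04, Benjamini-Hochberg adjusted p = 0.0953). With 1 library left out the log2 fold change ran from −1.34 to −0.91 and the adjusted p from 0.117 to 0.236. *Col18a1* was the only member called under any setting tried. Its adjusted p was 0.0249 with median-of-ratios size factors, where 0.971% of all genes were called, and 0.0160 with array weights, where 3.13% were called. It was 0.0345 with quantile normalization, where 129 of 15775 genes were called, and 0.0493 with robust moderation of the variances, where 112 were. Over all settings it ran from 0.0160 to 0.298.

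The other collagens of basement membrane zones overlapped between the groups. *Col15a1*, the close relative of *Col18a1*, was at 71.3, 108 and 73.7 TPM in control and 79.0, 78.0 and 69.8 TPM in knockout libraries, a log2 fold change of −0.13 (95% interval −0.56 to 0.29) whose sign changed without control replicate 2 and with array weights. *Col8a1* and *Col8a2* encode the short-chain collagen VIII that endothelial cells and injured VSMCs secrete. *Col8a1* was at 5.69 to 8.34 TPM in control and 6.03 to 11.8 TPM in knockout libraries. *Col8a2* was at 1.25 to 2.17 TPM over the 6 libraries, with a log2 fold change of −0.02 that changed sign under 2 of the settings and with 2 of the libraries left out. *Col7a1*, the anchoring fibril collagen of skin, was at 0.38 to 0.65 TPM in control and 0.47, 0.79 and 1.61 TPM in knockout libraries.

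Of the 9 linking and matricellular genes 7 were tested, 5 lower and 2 higher, and the median log2 fold change was −0.54, and the 4 most abundant of them were the ones with an unadjusted p under 0.05. *Sparc* (ENSMUSG00000018593; chromosome 11), which encodes the collagen-binding matricellular protein osteonectin, was the most abundant of the 34 genes in every library. It was at 1648, 1962 and 1620 TPM in control and 1169, 1339 and 1078 TPM in knockout libraries, which gave a log2 fold change of −0.54 (SE 0.17; limma, unadjusted p = 0.0109, Benjamini-Hochberg adjusted p = 0.357). Every knockout library lay below every control library.

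*Fn1* (ENSMUSG00000026193; chromosome 1), which encodes fibronectin, was at 1378, 1655 and 1111 TPM in control and 806, 1067 and 636 TPM in knockout libraries. Control replicate 3 and knockout replicate 2 lay close to each other, so the groups were separated by little. The log2 fold change was −0.74 (SE 0.23; limma, unadjusted p = 0.0120, Benjamini-Hochberg adjusted p = 0.367), and −0.93 to −0.56 with 1 library left out.

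*Tinagl1* (ENSMUSG00000028776; chromosome 4, 24.1 Mb from *Prdm16*), which encodes a laminin- and integrin-binding glycoprotein, was at 258, 347 and 240 TPM in control and 196, 197 and 151 TPM in knockout libraries. Its log2 fold change was −0.62 (SE 0.19; limma, unadjusted p = 0.0100, Benjamini-Hochberg adjusted p = 0.346). *Npnt* (ENSMUSG00000040998; chromosome 3), which encodes nephronectin, a ligand of integrin α8β1, was at 367, 555 and 345 TPM in control and 286, 301 and 232 TPM in knockout libraries. Its log2 fold change was −0.60 (SE 0.21; limma, unadjusted p = 0.0195, Benjamini-Hochberg adjusted p = 0.437), and −0.73 to −0.39 with 1 library left out. In *Tinagl1* and *Npnt* control replicate 2 was far above the other controls, and all knockout libraries remained below the lowest control.

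*Smoc1* and *Smoc2*, modular calcium-binding relatives of *Sparc*, did not share its pattern. *Smoc1* was at 86.2, 109 and 80.9 TPM in control and 86.6, 98.5 and 63.3 TPM in knockout libraries, and *Smoc2* at 48.2, 44.1 and 49.2 TPM in control and 39.1, 68.7 and 54.5 TPM in knockout libraries. The log2 fold changes of −0.16 and 0.16 had 95% intervals of −0.62 to 0.29 and −0.31 to 0.63, and each changed sign with 1 library left out. *Frem2*, of the Fraser complex that joins epithelium to mesenchyme, was at 0.39 to 0.99 TPM with a log2 fold change of 0.19.

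**Figure D4:**
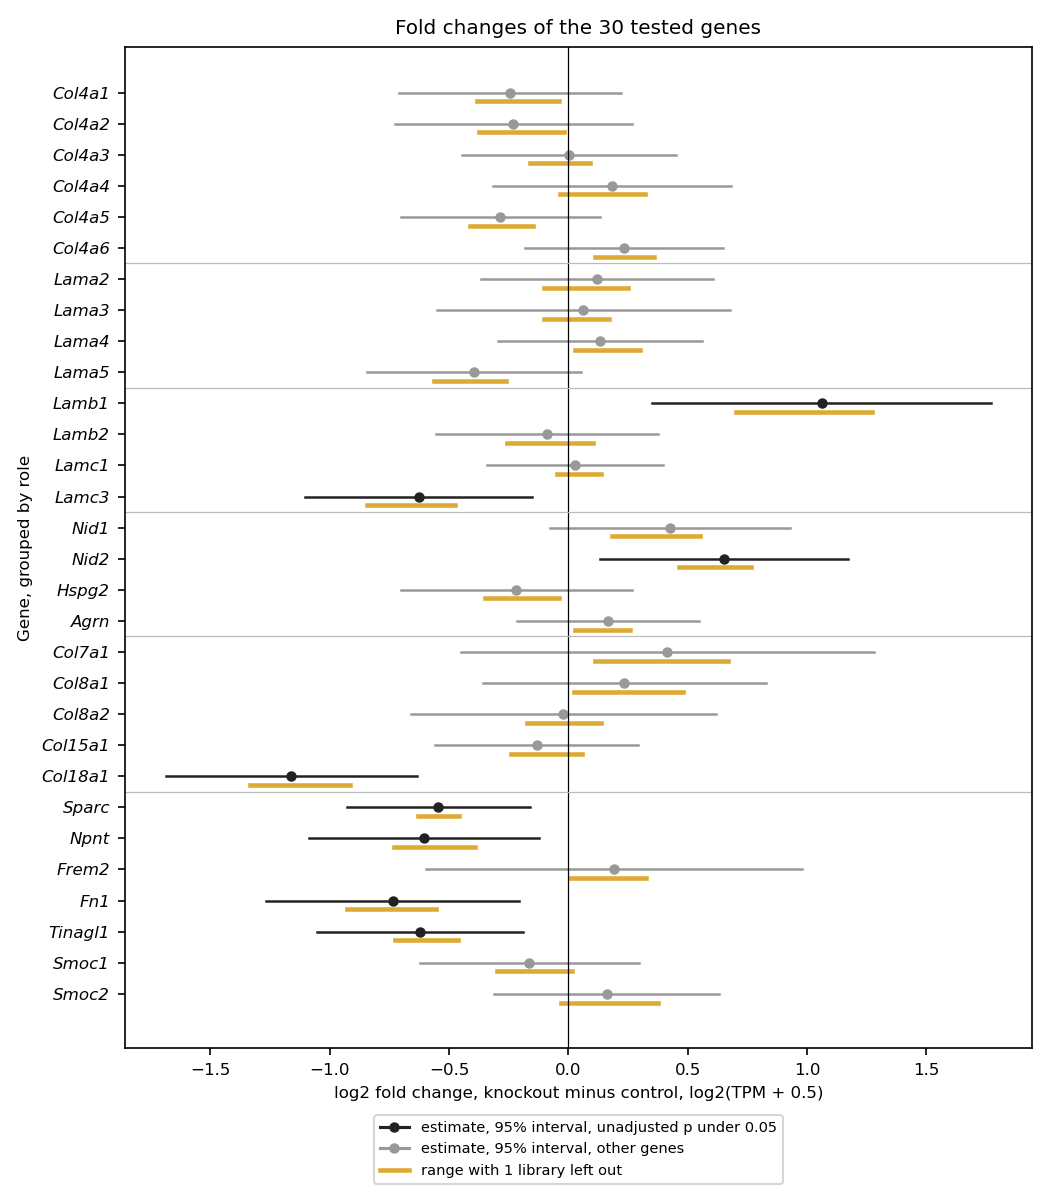
log2 fold change of knockout minus control for the 30 tested genes on the log2(TPM + 0.5) scale, grouped by role, with 95% intervals from limma (black where the unadjusted p was under 0.05) and, in yellow, the range of the estimate when 1 library was left out. Intervals exclude 0 for 8 genes, of which *Col18a1* is lowest at −1.16 and *Lamb1* highest at 1.06, and the yellow ranges of these 8 stay on 1 side of 0.

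Genes that work with the basement membrane were taken from 3 lists of receptors, of enzymes and chaperones of collagen IV maturation, and of further basement membrane proteins. Of their 40 tested genes 0 passed the adjusted threshold in limma. Before adjustment 6 had p under 0.05, of which 3 were lower, where 3.85% of all tested genes were, and 3 higher, where 4.88% were. The lists were described by their counts and were given no test.

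Of the 16 receptor genes, all tested, 9 were lower and 7 higher, and the median log2 fold change was −0.01. *Itga8*, the α chain of the nephronectin receptor, was at 564, 793 and 531 TPM in control and 464, 442 and 341 TPM in knockout libraries, with no overlap, a log2 fold change of −0.59 (SE 0.20) and an adjusted p of 0.436. *Npnt* and *Itga8* were both lower in every knockout library than in any control library. Both were highest in control replicate 2 and lowest in knockout replicate 3, and a link between them was not tested. Of the 16 receptor genes 1 was separated lower and 1 higher, where 5.76% and 7.02% of all genes tested were. *Itgb4*, the laminin-binding β4 chain, was at 7.02, 7.47 and 4.93 TPM in control and 8.29, 14.7 and 9.06 TPM in knockout libraries, also without overlap, with a log2 fold change of 0.66 (adjusted p = 0.492). The most abundant receptor gene, *Itgb1*, was at 654 ± 121 TPM in control and 643 ± 84.6 TPM in knockout libraries (SD, n = 3 each).

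Among 14 genes of type IV collagen maturation and cross-linking, 12 were lower and 2 higher in knockout aortas, and the median log2 fold change was −0.21. *Serpinh1*, the collagen chaperone HSP47, was at 442, 541 and 461 TPM in control and 361, 375 and 296 TPM in knockout libraries, which gave a log2 fold change of −0.49 (SE 0.16; limma, unadjusted p = 0.0156, adjusted p = 0.410). *Plod1*, a lysyl hydroxylase of collagen, was at 24.3, 28.7 and 24.6 TPM in control and 21.0, 21.4 and 18.2 TPM in knockout libraries (unadjusted p = 0.0489, adjusted p = 0.566). The groups did not overlap in either gene. Of the 14 genes 3 were separated lower, these included, and 0 higher, where 5.76% and 7.02% of all genes tested were.

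Of 14 further basement membrane proteins, 13 were in the table and 10 were tested, 3 lower and 7 higher, and the median log2 fold change was 0.14. *Ntn4*, a netrin that binds laminin γ1, was at 23.7, 34.8 and 27.5 TPM in control and 40.0, 54.1 and 41.5 TPM in knockout libraries, which gave a log2 fold change of 0.65 (SE 0.19; limma, unadjusted p = 0.00857, adjusted p = 0.323). *Hmcn2*, which encodes hemicentin-2, was at 1.64, 4.07 and 2.44 TPM in control and 4.16, 4.40 and 5.65 TPM in knockout libraries (adjusted p = 0.489). Both had an adjusted p under 0.05 with array weights, 0.0235 for *Ntn4* and 0.0443 for *Hmcn2*, a setting that called 3.13% of all genes tested.

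The tissue held its defining markers and those of other cell types that make basement membrane. The marker counts at an unadjusted p under 0.05 stand beside 3.85% of all tested genes that were lower and 4.88% that were higher at that level. All 7 VSMC markers were tested, with *Acta2* at 9269 ± 3275 TPM in control and 6546 ± 1440 TPM in knockout libraries (SD, n = 3 each). Of these markers 6 were lower and 1 higher in knockout aortas, and *Cnn1* and *Smtn* had an unadjusted p under 0.05. All 8 endothelial markers were higher, with summed levels of 173 to 233 TPM in control and 220 to 425 TPM in knockout libraries and *Vwf* at an unadjusted p under 0.05. The 7 adventitial fibroblast markers were all higher too, with overlapping sums of 764 to 966 and 750 to 1410 TPM and no unadjusted p under 0.05. Schwann cell markers were higher in 7 of 7, with sums of 18.9 to 97.0 TPM in control and 26.4 to 249 TPM in knockout libraries, with 1 of them at an unadjusted p under 0.05, and macrophage markers in 7 of 7, 5 of them at an unadjusted p under 0.05, with sums of 70.2 to 110 and 110 to 201 TPM. Adipocyte markers were higher in 6 of 7, 1 of them at an unadjusted p under 0.05, with overlapping sums. Mesothelial markers summed to under 1 TPM, skeletal muscle markers to between 2.22 and 69.0 TPM and cardiomyocyte markers to between 2.40 and 6.47 TPM per library. The part of these cell types in the differences of *Col18a1*, *Nid2*, *Lamb1* and the chain ratios was not tested.

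Of the 34 genes, 23 had RefSeq start sites in the sequence set used here, with 29 windows of 250 bases before a start. GC boxes (GGGCGG on either strand) were in 15 of the 29 windows, of 14 genes, and in 32.7% of all 32851 windows of that length. TATAAA on either strand was in 0 of the 29, against 12.4% of all windows. The pattern TGANTCA on either strand, which allows any middle base of an AP-1 site, was in 1 window, against 6.75% of all windows. That window was of *Tinagl1* and read TGAATCA, without the middle C or G of the AP-1 consensus. A CArG box, the SRF site of many VSMC genes, was in 1 window, of *Lama2*, against 1.47% of all windows. The windows of *Col4a1* and *Col4a2* each lie wholly in annotated exon of the other gene (250 of 250 bases), some genes have 2 windows, and a match is a description of letters in the window.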

How the data were processed

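RNA of whole abdominal aorta was sequenced in 3 control and 3 knockout libraries, and the authors deposited 1 table of TPM (transcript abundance, corrected for length and scaled to a fixed total) per gene and library. The submitters' processing notes name bcl2fastq, cutadapt 2.3, FastQC 0.11.8, STAR 2.7.8a, RSEM 1.3.3, MultiQC 1.7 and GRCm38, and the gene annotation release is not given in the sources used here. TPM are relative values, so a very abundant gene moves all others, and CT010467.1 alone took 13.8% to 28.8% of a library.

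Genes were tested where their mean over the 6 libraries reached 0.5 TPM, on log2(TPM + 0.5) with limma 3.58.1 (R 4.3.3; trended variances, two-sided) and Benjamini-Hochberg adjustment over 15775 genes, with a threshold of 0.05. Fold changes on this scale understate those of low genes. Chain ratios and shares were compared by exact permutation tests in Python 3.11.15 with scipy 1.17.1, pandas 2.3.3 and numpy 2.4.6, and plots were drawn with matplotlib 3.10.9. Every member was accounted for, with a value per library for those called, with an unadjusted p under 0.05, with separated groups, with a mean of at least 50 TPM or in a chain pair. Of the other lists, genes were named that were called, were among the 3 smallest unadjusted p under 0.05 or had the highest mean TPM. The members and lists were chosen with earlier results of these data known. The fit was tested on simulated data. No 2 libraries held identical values, and 28867 genes were at 0 in all libraries. Alternatives changed the pseudocount, expression minimum, scaling, variance model, array weights, replicate block and the libraries included. Gene positions came from GENCODE M21 (GRCm38) and sequences from RefSeq (GRCm38.p6).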

Additional observations from a re-analysis of the deposited data

How the results depend on the processing

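The number of genes called moved from 56 to 10 with no expression minimum, 153 with median-of-ratios size factors, 129 with quantile normalization, 33 with no variance trend, 112 with robust moderation and 494 with array weights, and ran from 5 (without control replicate 2) to 61 (without knockout replicate 1) with 1 library left out. The count of basement membrane genes called was 1 (*Col18a1*) with median-of-ratios size factors, quantile normalization, robust moderation and array weights, and 0 with any 1 library left out. Their count at an unadjusted p under 0.05, 8 as reported, ran from 5 (without knockout replicate 3) to 8 with 1 library left out. It was 11 with median-of-ratios size factors or array weights, 10 with quantile normalization and 9 with rescaling without mitochondrial genes. The share of all genes tested at that level was 8.74% as reported and 7.79% without knockout replicate 3. That share was 13.7% with median-of-ratios size factors, 20.1% with array weights, 12.7% with quantile normalization and 8.15% with rescaling without mitochondrial genes. Of the linked genes 2 were called with array weights. Replicate numbers did not pair the samples (correlations of same-numbered deviations −0.131, −0.11 and 0.0188, and no library correlated best with its own number). With the replicate block 4 genes and 0 members were called, and 10 members had an unadjusted p under 0.05, as had 9.84% of all genes tested. Signs of log2 fold changes reversed with median-of-ratios size factors for *Col4a3* (−0.0123), with quantile normalization for *Col4a3* (−0.0689) and *Lama3* (−0.0653), with rescaling without mitochondrial genes for *Col8a2* (0.0136) and with array weights for *Col15a1* (0.0639) and *Col8a2* (0.25) and *Lama3* (−0.0891). With 1 library left out, 10 members reversed, with ranges of −0.0463 to 0.136 for *Lamc1*, −0.241 to 0.0577 for *Col15a1*, −0.161 to 0.0893 for *Col4a3*, −0.258 to 0.104 for *Lamb2*, −0.174 to 0.139 for *Col8a2*, −0.102 to 0.169 for *Lama3*, −0.034 to 0.32 for *Col4a4*, −0.102 to 0.251 for *Lama2*, −0.0294 to 0.374 for *Smoc2* and −0.3 to 0.0169 for *Smoc1*. The cause was not tested. Depth limits cannot be given for TPM.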
